A study of Mus musculus with 18 samples.

Results

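The 10 genes described here are a core set of oxidant defence genes, taken as the rows of the deposited count table that carry the symbols Nfe2l2, Keap1, Gclc, Gclm, Gsr, Hmox1, Nqo1, Sod1, Sod2 and Cat. All 10 symbols were found among the 15730 genes of that table, and all 10 were tested. RNA was sequenced from dorsal root ganglia that serve the sciatic nerve, where the cell bodies of its sensory neurons lie, taken 24 hours after an operation from C57BL/6 mice aged 6 to 8 weeks. The 18 samples fell into 6 groups of 3, and ganglia of 2 mice were pooled for every sample. No transgene or mutant allele is given for any group.

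Sham_Saline and SNA_Saline received saline at the nerve with a sham procedure or with a sciatic nerve injury. SNA_NAC received the sciatic injury with N-acetyl-cysteine at 30 mM, an antioxidant thiol that is also a source of cysteine for glutathione. Sham_H202, spelled as in the sample titles, received the sham procedure with 13 mM hydrogen peroxide. DCA received an injury of the dorsal columns of the spinal cord, where the central branches of the same sensory neurons run, and LAM received a laminectomy, the opening of the vertebra. No group combined injury with peroxide or sham surgery with N-acetyl-cysteine, and no group was left without surgery.

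Nfe2l2 encodes Nrf2, a transcription factor that, with small Maf proteins, binds antioxidant response elements in the promoters of defence genes. Keap1 encodes the adaptor that delivers Nrf2 to a Cul3 ubiquitin ligase, and oxidants or electrophiles that modify Keap1 let Nrf2 accumulate, so the pathway is controlled largely through the stability of a protein. Gclc, Gclm, Hmox1 and Nqo1 are textbook Nrf2 targets. Gclc and Gclm are the catalytic and the modifier subunit of the enzyme that starts glutathione synthesis, and Gsr restores oxidised glutathione to its reduced form. Hmox1 degrades heme, Nqo1 reduces quinones, Sod1 and Sod2 convert superoxide to hydrogen peroxide in the cytosol and in mitochondria, and Cat breaks hydrogen peroxide down, mainly in peroxisomes.

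The promoter windows of these genes are shown first because the pathway is defined by a short DNA element. RefSeq windows of build GRCm38.p6, from 250 bases before to 50 after the annotated start, matched 7 of the 10 genes. Gclc, Gsr and Hmox1 had no entry. The core of the antioxidant response element was searched as TGACNNNGC on both strands, and it was found in 3 of the 7 windows, those of Nfe2l2, Gclm and Sod1. Of all 32544 windows of this length, 12.4% held it. The AP-1 element TGANTCA, also searched on both strands, was in 0 of the 7 windows and in 7.79% of all windows. The 3 matches follow 5′ to 3′ on the strand of the gene, with the match in capitals.
Nfe2l2, chr2:75704875-75704913, minus strand: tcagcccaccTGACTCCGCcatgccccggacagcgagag
Gclm, chr3:122245403-122245451, plus strand: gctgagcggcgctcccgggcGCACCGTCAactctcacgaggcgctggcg
Sod1, chr16:90220686-90220734, plus strand: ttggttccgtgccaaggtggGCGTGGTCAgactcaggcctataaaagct
The match of Nfe2l2 begins at position -240 from the start and lies on the gene's own strand. Those of Gclm and Sod1 begin at positions -134 and -56 and lie on the opposite strand, where they read TGACGGTGC and TGACCACGC. Each match is a description of letters, and no binding was measured. The windows begin 250 bases before the start, so elements further upstream were not searched. A window without a match, such as that of Nqo1, does not mean that the gene lacks the element.

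Levels are given as counts scaled to a common library total (CPM) after TMM normalization, and changes are log2 ratios fitted by edgeR's quasi-likelihood test. P-values were adjusted over all 15730 genes by the Benjamini-Hochberg method, with 0.05 as the threshold. In pooled whole ganglia, fewer cells that express a gene and less RNA per cell cannot be told apart. Counts per library summed to between 6472476 (Sham_H202 replicate 3) and 42435331 (SNA_NAC replicate 1), and the 10 genes were read at between 98 counts (Nqo1) and 12789 counts (Sod1) in a library. The 8 neuronal markers were present in every library, the least abundant at 55.8 CPM or more, as the tissue label says. The Sham_Saline libraries stood apart from one another: replicates 1 and 2 differed by a chi-square of 112 per degree of freedom, the highest of all replicate pairs, while the closest pair of the series had 3.98. This chi-square was taken on unscaled counts and grows with depth. The other Sham_Saline pairs had 51.1 and 34.3, and replicates 2 and 3 had 45.0 in Sham_H202 and 35.6 in DCA. The slope of expression on the GC share of a gene's transcript (log2 per standard deviation) was 0.43 in Sham_Saline replicate 2, the highest of the 18 libraries, 0.16 in replicate 3 and -0.04 in replicate 1, and it was lowest at -0.22 in Sham_H202 replicate 3. Changes that altered their direction, or moved by more than 1.5 times, when per-sample offsets for GC share and length were added to the fit are given with their value under these offsets.

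Per length of transcript, as deposited FPKM averaged over the 18 samples, Sod1 was the most abundant of the genes at 481, followed by Cat at 73.7. Gclm at 33.0, Sod2 at 31.7 and Gsr at 30.9 lay close together, then Nfe2l2 at 21.9 and Gclc at 16.2. Hmox1 at 11.1, Nqo1 at 9.25 and Keap1 at 8.29 were the least abundant. Between the lowest and the highest of the 18 samples, Cat spanned 1.22-fold, Sod2 1.25-fold and Gsr 1.26-fold in CPM, while Hmox1 spanned 1.83-fold and Keap1 2.15-fold. Between the lowest and the highest group mean, Cat spanned 1.08-fold and Keap1 1.42-fold.

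**Figure D1:**
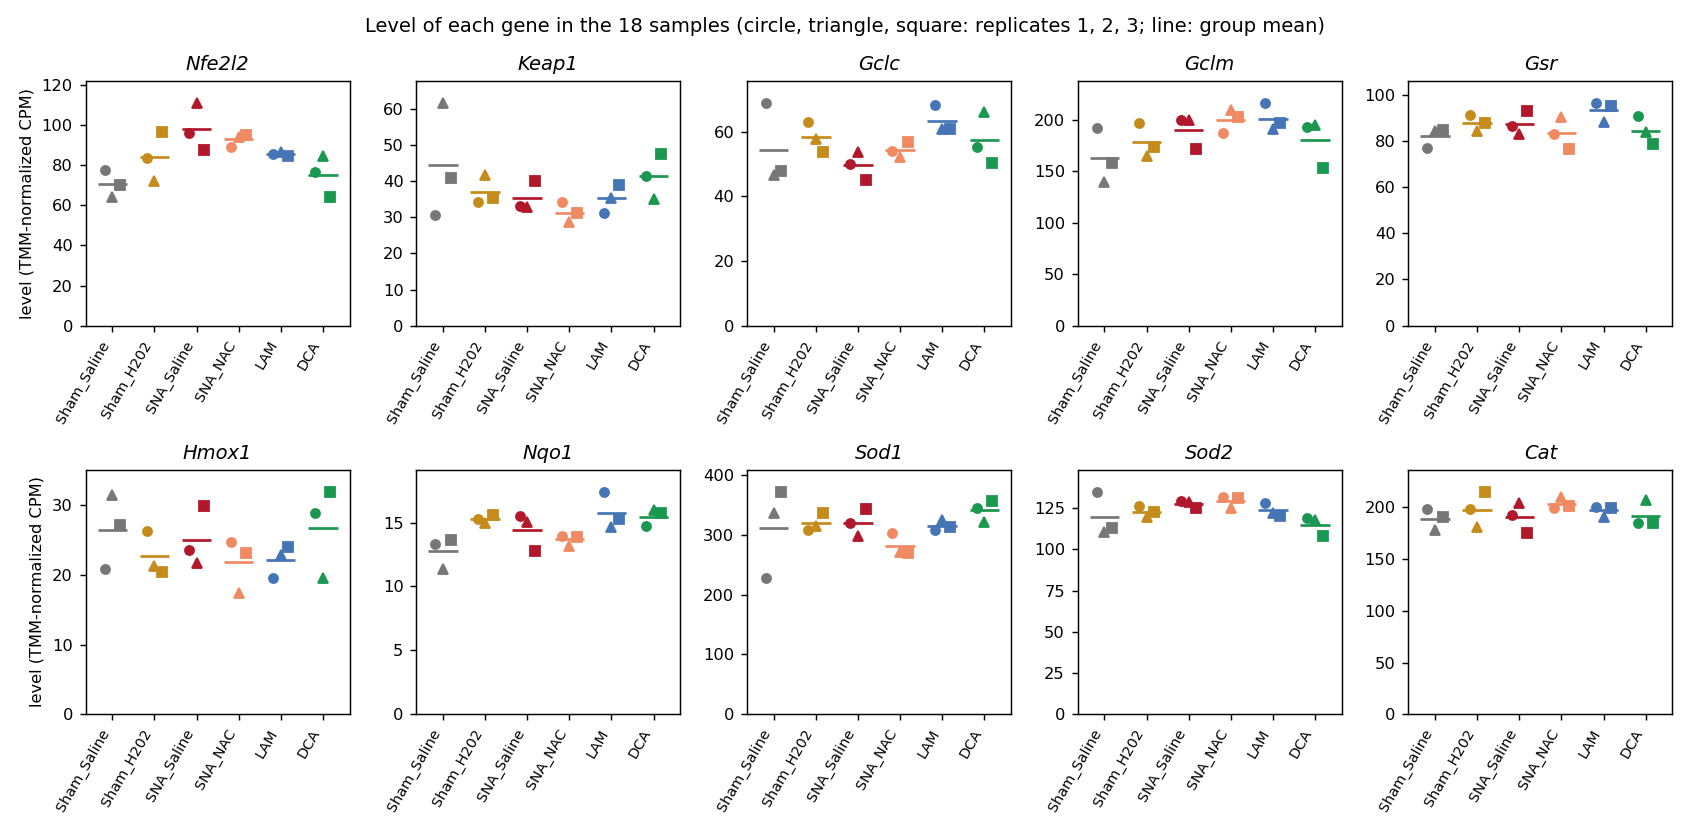
Level of each of the 10 genes in TMM-normalized CPM (vertical axis, from 0) in the 6 groups (horizontal axis); circles, triangles and squares are replicates 1, 2 and 3, and lines are group means. Most ranges overlap between neighbouring groups, Keap1 is highest in Sham_Saline replicate 2, and Nfe2l2 is higher in all 3 SNA_Saline and all 3 SNA_NAC libraries than in any Sham_Saline library.

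Whether any of the 6 groups differed was asked first, with a single F test per gene. None of the 10 genes passed in edgeR, against a background of 3.94% of all genes, and 1 of 10 had an unadjusted p under 0.05 against 17.8% of all genes. That gene was Nfe2l2 (edgeR adjusted p = 0.161). DESeq2's likelihood ratio test called 1 of 10, again Nfe2l2, and limma on the FPKM called 0. Shares of all genes that passed are those of edgeR, here and in the comparisons below. No such share is given for DESeq2 or limma. Cat had the highest adjusted p of the 10, at 0.883.

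Sciatic nerve injury against sham, both with saline, was the central comparison. None of the 10 genes passed the threshold in edgeR, against 2.73% of all genes. At an unadjusted p under 0.05 there was 1 of 10, against 22.5% of all genes. DESeq2 called 1, Nfe2l2, and limma on the FPKM called 0. The fitted change was above 0 for 7 of the 10 genes and for 46.5% of all genes, with a median log2 change of 0.06 beside -0.03 over all genes. In the same libraries 7 of 7 textbook genes of the axotomy response, Atf3, Jun, Gadd45a, Sox11, Sprr1a, Gal and Npy, rose, with a median log2 change of 2.53.

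Nfe2l2 (2:75675513-75704641, minus strand, GRCm38) came closest to the threshold. Its level in Sham_Saline was 77.6, 64.1 and 70.1 CPM in replicates 1, 2 and 3, and in SNA_Saline it was 95.9, 111 and 87.6 CPM. All 3 injured samples lay above all 3 sham samples, a separation that 19.1% of all genes showed in this comparison. The group means were 70.6 ± 6.79 CPM (SD, n = 3) and 98.1 ± 11.7 CPM (SD, n = 3). The log2 change was 0.47 ± 0.12 (SE), a fold of 1.39 with a 95% interval of 1.16 to 1.67, and the edgeR adjusted p was 0.0525. Within the 3 sequencing lanes, each of which held 1 sample of both groups, the log2 difference was 0.30, 0.79 and 0.32.

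Over the 16 alternative ways of processing, the log2 change of Nfe2l2 ran from 0.31 to 0.55 and the adjusted p from 0.0146 to 0.308. In 5 of the 16 the adjusted p was under 0.05. The looser threshold of 0.10 is also among the 16, and there the unchanged edgeR adjusted p of 0.0525 passed. DESeq2 gave an adjusted p of 0.0161, and edgeR with the GC and length offsets gave a log2 change of 0.31 with an adjusted p of 0.0146. Leaving out Sham_Saline replicate 1 gave 0.55 with an adjusted p of 0.0232, and leaving out SNA_Saline replicate 3 gave 0.55 with 0.0400. The direction was upward in every one of the 16. Here and in all later counts of alternatives, the threshold of 0.10 and the fit with no filter repeat the reported fit and are no separate checks.

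Keap1 (9:21229730-21239361, minus strand) was read at 30.8, 61.6 and 40.9 CPM in Sham_Saline and at 33.2, 32.9 and 40.1 CPM in SNA_Saline. The sham group held both the highest and the lowest of these 6 values, so the groups overlapped. The log2 change was -0.33 ± 0.20 (edgeR adjusted p = 0.306). Without Sham_Saline replicate 2 it was -0.01, without replicate 1 it was -0.54 with an adjusted p of 0.0464, and with the GC and length offsets it was 0.10, the opposite direction. Of the 10 transcripts that of Keap1 had the highest GC share. Keap1 overlaps the antisense gene Gm16754, and whether the counting used strand is not given in the sources used here.

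The enzymes of glutathione synthesis did not pass. Gclm (3:122245557-122270732, plus strand) was at 192, 140.0 and 158 CPM in Sham_Saline and at 199.9, 199.6 and 172 CPM in SNA_Saline. The highest sham value lay above the lowest injured value. The log2 change was 0.22 ± 0.13 (edgeR adjusted p = 0.285), and with the GC and length offsets it was -0.02. Gclm overlaps the gene Gm17494 on the other strand and the pseudogene Gm6061, so its counts are uncertain. Gclc (9:77754535-77794485, plus strand), the catalytic subunit, was at 68.8, 46.6 and 48.0 CPM in Sham_Saline and at 50.1, 53.8 and 45.0 CPM in SNA_Saline, with a log2 change of -0.13 ± 0.14 (edgeR adjusted p = 0.557) that was -0.23 with the GC and length offsets. Replicate 1 was the highest of the Sham_Saline libraries for Gclc, and without it the change was 0.07.

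Gsr (8:33652523-33698163, plus strand), the glutathione reductase, was at 76.7, 84.5 and 84.6 CPM in Sham_Saline and 86.4, 82.8 and 93.1 CPM in SNA_Saline. The ranges overlapped, and the log2 change was 0.09 ± 0.09 (edgeR adjusted p = 0.522), with a 95% interval from -0.10 to 0.29, and it was 0.04 with the GC and length offsets. A snoRNA gene, Gm24727, lies within it.

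The pair of classic inducible Nrf2 targets gave no passing change either. Hmox1 (8:75093621-75100589, plus strand) was at 20.9, 31.5 and 27.2 CPM in Sham_Saline and 23.6, 21.7 and 29.9 CPM in SNA_Saline, and all injured values lay within the range of the sham values. Its log2 change was -0.08 ± 0.20 (edgeR adjusted p = 0.825), with a 95% interval from -0.50 to 0.34, and it was 0.01 with the GC and length offsets. Nqo1 (8:107388225-107403206, minus strand) was at 13.3, 11.4 and 13.6 CPM in Sham_Saline and 15.5, 15.0 and 12.8 CPM in SNA_Saline. Its ranges overlapped, with a log2 change of 0.18 ± 0.12 (edgeR adjusted p = 0.350). It was 0.0077 with the GC and length offsets and 0.10 without Sham_Saline replicate 2.

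The enzymes that remove superoxide and peroxide did not pass either. Sod1 (16:90220754-90226329, plus strand) was at 228, 337 and 371 CPM in Sham_Saline and 319, 297 and 343 CPM in SNA_Saline. Sham_Saline replicate 1 held the lowest Sod1 value of all 18 samples and replicate 3 the highest, so the sham group alone spanned the series. The log2 change was 0.04 ± 0.13 (edgeR adjusted p = 0.885), and it was -0.15 without replicate 1 and -0.07 with the GC and length offsets. Sod1 overlaps Scaf4 on the opposite strand.

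Sod2 (17:13006846-13040063, plus strand) was at 135, 111 and 113 CPM in Sham_Saline and 129, 129 and 125 CPM in SNA_Saline, with a log2 change of 0.10 ± 0.09 (edgeR adjusted p = 0.487) that became -0.14 with the GC and length offsets. The 3 injured Sod2 values lay within the sham range. Cat (2:103453849-103485160, minus strand) was at 198, 179 and 191 CPM in Sham_Saline and 192, 204 and 176 CPM in SNA_Saline. Its log2 change was 0.01 ± 0.09 (edgeR adjusted p = 0.944), and the 95% interval of the fold reached from 0.885 to 1.15. With the GC and length offsets the change of Cat was -0.09.

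**Figure D2:**
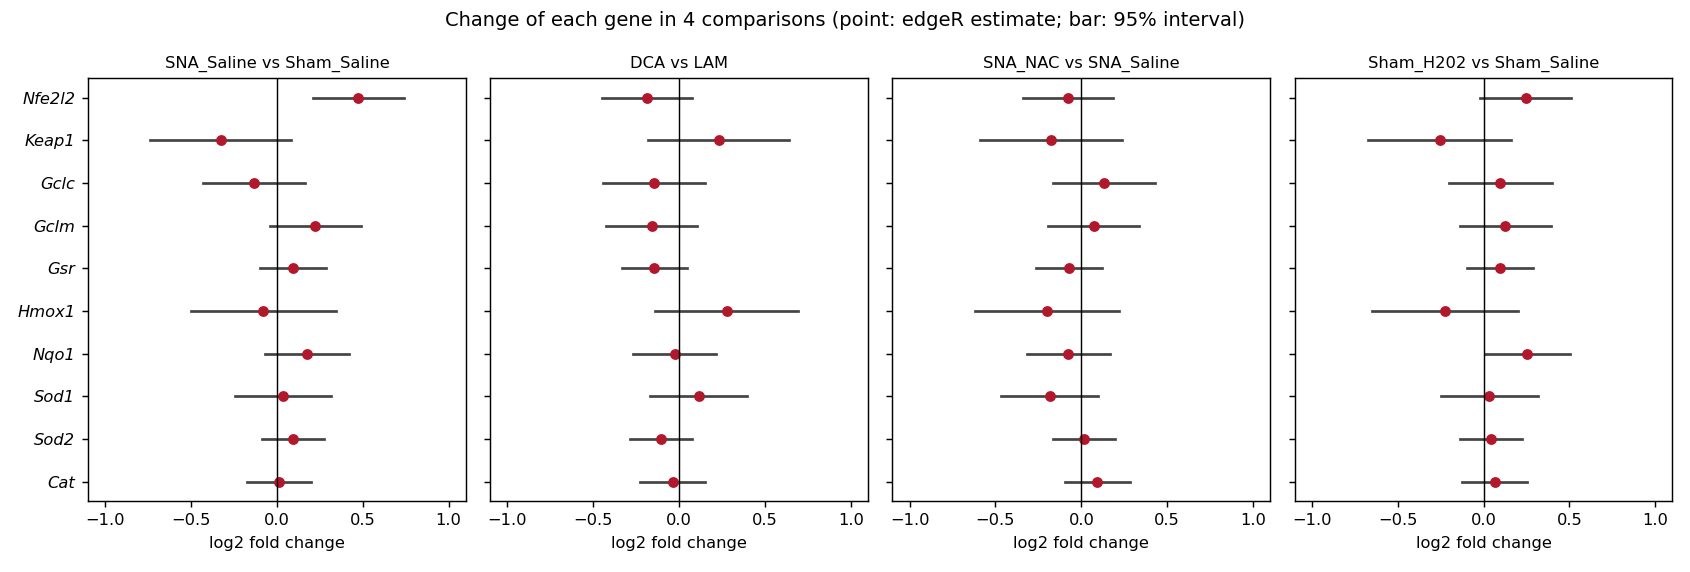
Log2 change of each of the 10 genes (rows) in 4 comparisons (panels), as the edgeR estimate (point) with its 95% interval (bar). Of the 20 intervals in the injury panels, that of Nfe2l2 after sciatic injury, 0.21 to 0.74, stands clear of 0; in the peroxide panel that of Nqo1, 0.01 to 0.50, does so narrowly.

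Dorsal column injury against laminectomy asked the same of the central branch. In edgeR 0 of the 10 genes passed, and 0% of all genes did. At an unadjusted p under 0.05 there were 0 of 10, against 5.04% of all genes, and DESeq2 and limma called 0. The fitted change was above 0 for 3 of the 10 genes and for 49.4% of all genes, with a median of -0.07 beside 0.00 over all genes. Of the 7 axotomy genes 0 passed in edgeR here, with 5 fitted above 0 and 2 below. Nfe2l2 was at 85.4, 86.5 and 84.4 CPM in LAM and 76.4, 84.7 and 64.0 CPM in DCA, the lowest change of the 10 at -0.19 ± 0.12 (edgeR adjusted p = 0.624), and -0.08 with the GC and length offsets. It was lower in DCA in all 3 lanes, though DCA replicate 2 lay within the LAM range.

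Hmox1 had the highest change after dorsal column injury. It was at 19.6, 22.8 and 24.0 CPM in LAM and 28.8, 19.6 and 31.9 CPM in DCA, with a log2 change of 0.28 ± 0.20 (edgeR adjusted p = 0.624) that was 0.15 with the GC and length offsets, and DCA replicate 2 was the lowest of these 6 values. Sod2 was the only one of the 10 whose ranges did not overlap, a state that 21.7% of all genes shared. It was at 128, 122 and 120.3 CPM in LAM and 119, 118 and 108 CPM in DCA, a log2 change of -0.10 ± 0.09 (edgeR adjusted p = 0.633) that turned to 0.11 with the GC and length offsets. Between LAM and DCA the summed level of the 8 neuronal markers was higher in DCA without overlap, at 5829 to 6566 CPM against 5510 to 5736 CPM. Of these 8 markers, 6 were fitted above 0 and 2 below. The sum of the 5 fibroblast markers was lower, at 833 to 932 CPM against 955 to 1086 CPM, with 5 of 5 fitted below 0. The part of these cell types in the changes of the 10 genes was not tested.

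The difference between the sciatic and the dorsal column response was tested directly. None of the 10 genes passed in edgeR, against 1.61% of all genes, and 2 of 10, Nfe2l2 and Gclm, had an unadjusted p under 0.05 against 31.4% of all genes. For Nfe2l2 the difference was 0.66 ± 0.18 on the log2 scale (edgeR adjusted p = 0.0659), higher after sciatic injury. DESeq2 gave an adjusted p of 0.0151, and the GC and length offsets gave 0.39 with an adjusted p of 0.0391. Over 22 alternatives its adjusted p was under 0.05 in 4, and its direction was kept in all. The looser threshold of 0.10 is also among the 22, and there the unchanged edgeR adjusted p of 0.0659 passed. For Gclm the difference was 0.38 ± 0.18 (edgeR adjusted p = 0.154), and it was -0.07 with the offsets. Keap1 had the lowest difference, -0.56 ± 0.28 (edgeR adjusted p = 0.175), and it was 0.15 with the offsets. DESeq2 called 1 of the 10 and limma 0. The fitted difference was above 0 for 7 of the 10 genes and for 48.7% of all genes.

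N-acetyl-cysteine against saline after sciatic injury tested whether the antioxidant altered these transcripts. In edgeR 0 of 10 genes passed, as did 0% of all genes, and 0 of 10 had an unadjusted p under 0.05, against 2% of all genes. DESeq2 and limma called 0. The fitted change was above 0 for 4 of the 10 genes and for 49.4% of all genes, with a median of -0.07 beside 0.00 over all genes. Every one of the 10 ranges overlapped, while 14.9% of all genes had none. Nfe2l2 was at 89.2, 94.2 and 95.2 CPM in SNA_NAC, inside the SNA_Saline range. Gclc had the highest change, from 50.1, 53.8 and 45.0 CPM to 54.0, 52.2 and 56.8 CPM, a log2 change of 0.13 ± 0.14 (edgeR adjusted p = 1.00). Hmox1 had the lowest, from 23.6, 21.7 and 29.9 CPM to 24.8, 17.5 and 23.2 CPM, a log2 change of -0.20 ± 0.20 (edgeR adjusted p = 1.00), and -0.08 with the GC and length offsets.

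Over the 10 genes the 95% intervals of the fold with N-acetyl-cysteine reached from 0.652 (Hmox1) to 1.35 (Gclc). A change of Nfe2l2 beyond 0.789-fold or 1.14-fold lay outside its interval. For Sod1 the SNA_NAC values were 303, 271 and 269.9 CPM, of which replicates 2 and 3 lay below all SNA_Saline values. Cat was at 199, 209.7 and 202 CPM in SNA_NAC, and its group mean there, 204 ± 5.50 CPM (SD, n = 3), was the highest of the 6.

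SNA_NAC was also compared with Sham_Saline, which shares its controls with the first comparison and is given beside it. None of the 10 genes passed in edgeR, against 3.32% of all genes, and 3 of 10, Nfe2l2, Keap1 and Gclm, had an unadjusted p under 0.05 against 27.6% of all genes. DESeq2 called 1, Nfe2l2, and limma 0. The fitted change was above 0 for 6 of the 10 genes and for 48.4% of all genes. The Nfe2l2 change was 0.39 ± 0.12 (edgeR adjusted p = 0.0883), beside 0.47 with saline. The Keap1 change was -0.50 ± 0.19 (edgeR adjusted p = 0.131), with SNA_NAC at 34.3, 28.7 and 31.1 CPM. It was -0.04 with the GC and length offsets, -0.71 (edgeR adjusted p = 0.00784) without Sham_Saline replicate 1 and -0.19 without replicate 2. The Gclm change was 0.30 ± 0.12 (edgeR adjusted p = 0.151), with SNA_NAC at 188, 210.0 and 203 CPM, and it was -0.06 with the GC and length offsets. Ranges did not overlap for Nfe2l2 and Cat, where 21.2% of all genes were so separated. Without Sham_Saline replicate 1, 5 of the 10 passed: Nfe2l2, Gclm and Sod2 above the sham, and Keap1 and Sod1 below it. The share of all genes that passed in that fit is not given, and the 3.32% is from the fit of all 18 samples. The count of 5 therefore has no background and cannot be read as a result about these genes. The Sham_Saline libraries left in that fit had GC slopes of 0.43 (replicate 2) and 0.16 (replicate 3), against -0.04 in replicate 1. The summed level of the 6 neutrophil markers was lower in SNA_NAC than in Sham_Saline without overlap, at 206 to 271 CPM against 303.5 to 522 CPM. Of the 62 markers of all cell types 2 passed in edgeR, against 3.32% of all genes, 7 in DESeq2 and 1 in limma. The 2 were the neutrophil gene Camp (log2 change -1.51 ± 0.34, edgeR adjusted p = 0.0213) and the macrophage gene Mrc1 (0.73 ± 0.19, edgeR adjusted p = 0.0470). Of the 9 measured macrophage markers, 3 were fitted above 0 and 6 below, with a median of -0.24. The part of these cell types in the changes of the 10 genes was not tested.

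Hydrogen peroxide at the nerve without injury was compared with the saline sham. In edgeR 0 of 10 genes passed and 0% of all genes did, 1 of 10 had an unadjusted p under 0.05 against 9.15% of all genes, and DESeq2 and limma called 0. The fitted change was above 0 for 8 of the 10 genes and for 47.5% of all genes, with a median of 0.08 beside -0.02 over all genes. Nqo1, the quinone reductase, was the gene with the low unadjusted p. It was at 13.3, 11.4 and 13.6 CPM in Sham_Saline and 15.3, 14.9 and 15.6 CPM in Sham_H202, and all peroxide samples lay above all saline samples, as 5.43% of all genes did in either direction. The log2 change was 0.26 ± 0.12 (edgeR adjusted p = 0.449), a fold of 1.19, and it passed in none of the 16 alternatives. With the GC and length offsets it was 0.11.

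Nfe2l2 was at 83.7, 71.9 and 96.5 CPM with peroxide, between the sham and the injured means, and its range overlapped that of Sham_Saline. The 95% interval of its fold, 0.987 to 1.43, was the one that reached highest among the 10. Keap1 had the lowest change, -0.26 ± 0.20 (edgeR adjusted p = 0.520), with Sham_H202 at 34.3, 41.7 and 35.3 CPM. It was 0.06 without Sham_Saline replicate 2 and 0.14 with the GC and length offsets, so its direction was not kept. Hmox1, a heme oxygenase known to respond to peroxide, was at 26.3, 21.3 and 20.5 CPM, all within or below the sham range. Sham_H202 replicates 1 and 3 were the shallowest libraries of the series.

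The surgical controls were set against each other as well. Between Sham_Saline and LAM, edgeR called 0 of the 10, against 0.0699% of all genes, and 3 of 10 had an unadjusted p under 0.05 against 30.3% of all genes. DESeq2 and limma called 0. The fitted change was above 0 for 2 of the 10 genes and for 52.3% of all genes, with a median of -0.12 beside 0.02 over all genes. Ranges did not overlap for Nfe2l2, Gsr and Nqo1, each lower in Sham_Saline, and 30.6% of all genes were so separated. Of the 7 axotomy genes, 6 were fitted above 0 and 1 below, and 1 passed in edgeR. That was Atf3, at means of 62.6 CPM in Sham_Saline and 13.8 CPM in LAM, a log2 change of 2.17 ± 0.19 (edgeR adjusted p = 4.09e-05). The 2 controls were thus not alike in this injury gene, and its bearing on the 10 genes was not tested.

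Nqo1 was at 17.4, 14.6 and 15.3 CPM in LAM, with a log2 change of -0.30 ± 0.11 in Sham_Saline (edgeR adjusted p = 0.115), and of -0.09 with the GC and length offsets. Gsr was at 96.3, 88.4 and 95.1 CPM in LAM, a log2 change of -0.19 ± 0.09 (edgeR adjusted p = 0.173), and that of Nfe2l2 was -0.27 ± 0.12 (edgeR adjusted p = 0.152), or -0.07 with the offsets. Gclm was at 216, 191 and 197 CPM in LAM, with a log2 change of -0.30 ± 0.13 in Sham_Saline (edgeR adjusted p = 0.129), and of 0.01 with the GC and length offsets. Keap1 had the highest change, 0.33 ± 0.19 (edgeR adjusted p = 0.245), and -0.19 with the offsets. Gclc was highest in LAM, at 68.2, 60.9 and 61.0 CPM. Without Sham_Saline replicate 1, 4 of the 10 passed, Keap1 above LAM and Gclc, Gclm and Nqo1 below it. The share of all genes that passed in that fit is not given, and the 0.0699% is from the fit of all 18 samples. The count of 4 therefore has no background, is not to be set against the 0.0699%, and cannot be read as a result about these genes.

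In order of group means, Nfe2l2 ran from SNA_Saline through SNA_NAC, LAM, Sham_H202 and DCA to Sham_Saline. Of the 5 neighbouring pairs in that order 1, SNA_NAC and LAM, did not overlap. For each of the other genes 0 of 5 neighbouring pairs were free of overlap. LAM was the highest group for Gclc, Gclm, Gsr and Nqo1, and SNA_NAC was the highest for Sod2 and Cat and the lowest for Keap1, Hmox1 and Sod1.

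**Figure D3:**
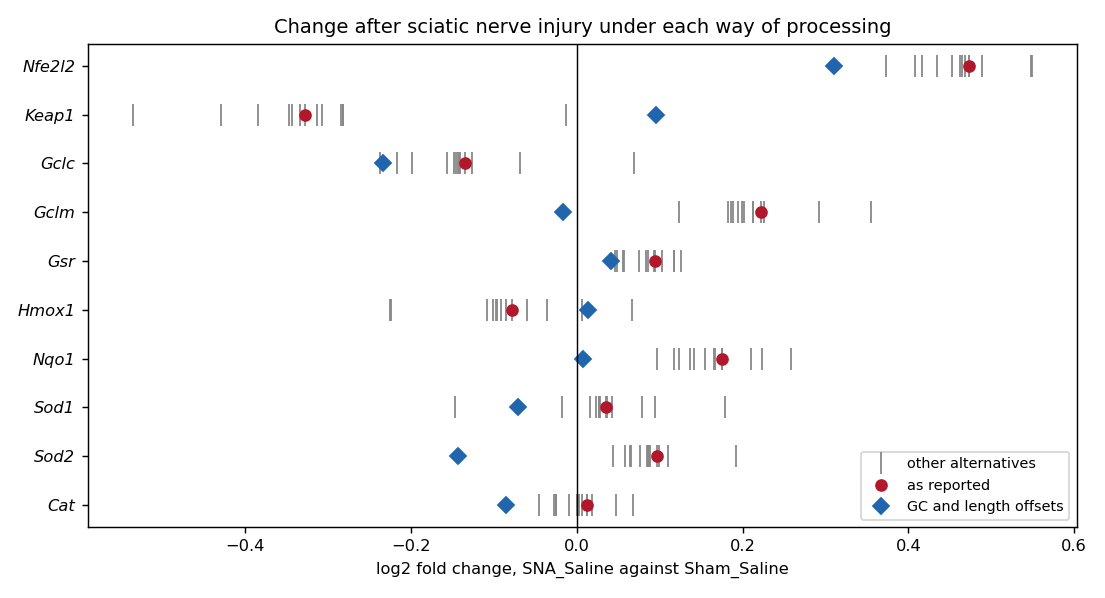
Log2 change of each of the 10 genes (rows) after sciatic injury with saline (horizontal axis), as reported (red circle), with the GC and length offsets (blue diamond) and under the other alternatives (grey ticks). Nfe2l2 stays above 0 throughout, between 0.31 and 0.55, while Keap1, Gclm, Hmox1, Sod1, Sod2 and Cat lie on opposite sides of 0 with and without the offsets.

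Across the 18 samples the level of Nfe2l2 was most like that of Ddx10 (Pearson r = 0.962 of log2 CPM), Wdr43 (r = 0.961) and Coq10b (r = 0.961), among 12990 genes with a mean count of at least 50. This is a description over libraries that share differences in GC slope, with which Nfe2l2 itself had r = -0.84. The corresponding r of the other 9 genes with the GC slope ran from -0.86 (Gclm) to 0.89 (Keap1), and those nearest 0 were -0.23 (Gsr) and 0.45 (Sod1). Nfe2l2 and Keap1 had r = -0.76 with each other over the same 18 libraries.

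The wider pathway was described through 6 lists that leave the 10 genes out. Of 15 regulators of Nrf2 signalling, such as the small Maf factors, Cul3 and Sqstm1, 1 rose after sciatic injury with saline and 0 fell, with a median log2 change of 0.02. Of 25 measured Nrf2 targets 3 rose and 1 fell, with a median of -0.17, and 8 were fitted above 0 and 17 below. Of 35 measured genes of the glutathione cycle 1 rose (median -0.04). Of 21 genes of superoxide and peroxide defence 2 rose (median -0.04), both also on the target list. Of 11 genes of heme and iron handling and 15 peroxisome genes 0 passed in edgeR, DESeq2 or limma, with medians of -0.05 and -0.07 beside -0.03 over all genes, and 0 of 11 and 5 of 15 had an unadjusted p under 0.05. Over the 6 lists together, 6 of 111 genes passed in each of the 3 tools, where edgeR called 2.73% of all genes, and 23 of 111 had an unadjusted p under 0.05, against 22.5% of all genes.

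**Figure D4:**
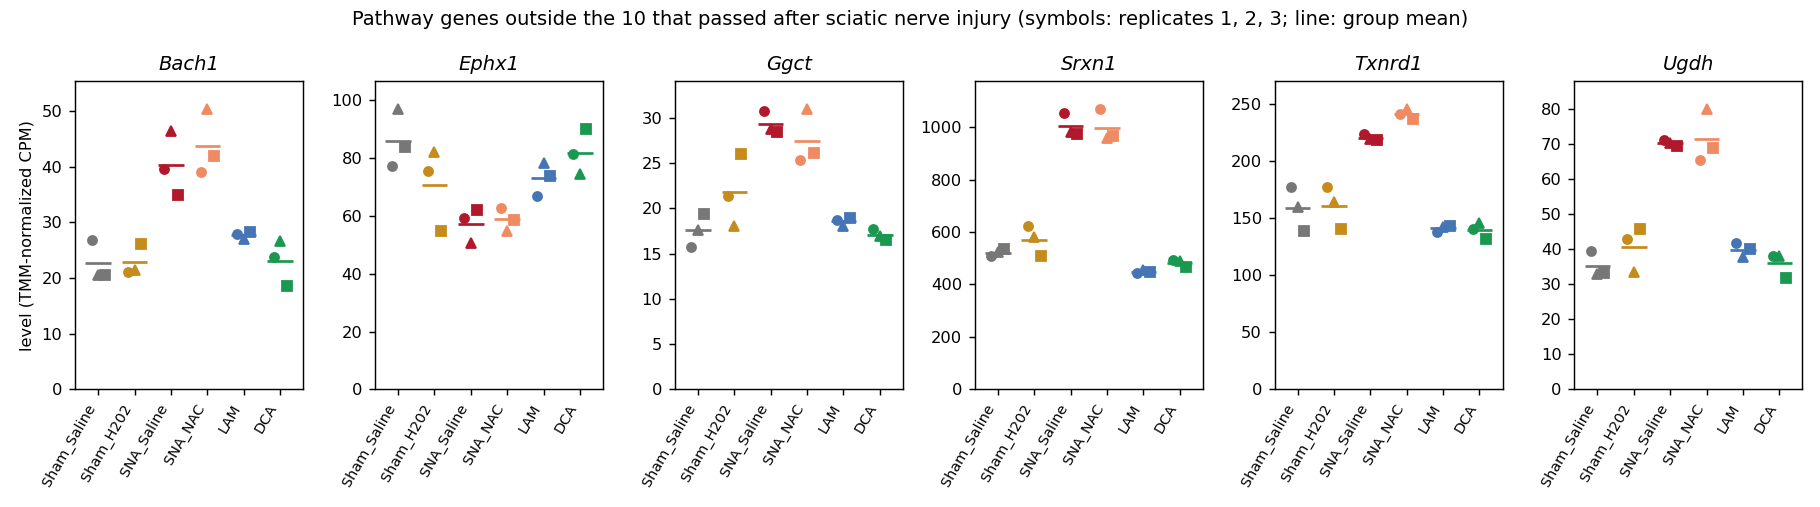
Level in TMM-normalized CPM (vertical axes, from 0) in the 6 groups of the 6 pathway genes outside the 10 that passed after sciatic injury with saline; symbols are replicates 1, 2 and 3 and lines are group means. Bach1, Ggct, Srxn1, Txnrd1 and Ugdh are higher in both sciatic injury groups than in Sham_Saline, and Ephx1 is lower.

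Bach1, the heme-sensing repressor that competes with Nrf2 at its elements, rose. It was at 26.9, 20.6 and 20.5 CPM in Sham_Saline, 39.5, 46.5 and 34.9 CPM in SNA_Saline and 39.0, 50.4 and 41.8 CPM in SNA_NAC, so both injured groups lay above the sham. The log2 change with saline was 0.83 ± 0.16 (edgeR adjusted p = 0.00752). It passed in 14 of 16 alternatives, with an adjusted p of 0.179 when only the groups of the comparison were fitted and 0.0563 without SNA_Saline replicate 2.

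Ugdh, which makes the UDP-glucuronate used in conjugation and in matrix polysaccharides, rose from 39.3, 32.8 and 33.2 CPM to 71.2, 70.3 and 69.5 CPM. That was a log2 change of 1.00 ± 0.12 (edgeR adjusted p = 0.000137), and it passed in 16 of 16 alternatives. Ggct, which cleaves gamma-glutamyl amino acids in glutathione breakdown, rose from 15.8, 17.6 and 19.3 CPM to 30.7, 28.8 and 28.4 CPM, a log2 change of 0.74 ± 0.13 (edgeR adjusted p = 0.00403). Its adjusted p was 0.135 when only the groups of the comparison were fitted, the one alternative of 16 in which it did not pass.

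Srxn1, the sulfiredoxin that repairs over-oxidised peroxiredoxins, rose by 0.94 ± 0.09 (edgeR adjusted p = 9.71e-06), and Txnrd1, the cytosolic thioredoxin reductase, by 0.47 ± 0.10 (edgeR adjusted p = 0.0128). Srxn1 passed in 16 of 16 alternatives and Txnrd1 in 13 of 16. The adjusted p of Txnrd1 was 0.288 when only the groups of the comparison were fitted, 0.0517 without Sham_Saline replicate 3 and 0.0714 without SNA_Saline replicate 1. The log2 change of Txnrd1 was the size of that of Nfe2l2 with a smaller standard error. Ephx1, the microsomal epoxide hydrolase, fell from 77.3, 97.0 and 83.9 CPM to 59.5, 50.5 and 62.1 CPM, a log2 change of -0.58 ± 0.14 (edgeR adjusted p = 0.0314). It passed in 10 of 16 alternatives, and its adjusted p with the replicate block was 0.0631.

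In the comparisons of DCA with LAM, SNA_NAC with SNA_Saline and Sham_H202 with Sham_Saline, edgeR called 0 of the 111 genes of the 6 lists, as it called 0% of all genes, and DESeq2 and limma called 0. At an unadjusted p under 0.05 there were 6, 1 and 8 of the 111, against 5.04%, 2% and 9.15% of all genes. With N-acetyl-cysteine after injury, 33 of the 35 glutathione genes and 19 of the 21 superoxide and peroxide genes were fitted below 0, with medians of -0.14 and -0.15 beside 0.00 over all genes. Of all genes 49.4% were fitted above 0. In each of these lists 5 genes are also on another list, and all genes were read in the same libraries, so these are not counts of independent genes. With the GC and length offsets these counts were 26 of 35 and 16 of 21, and without SNA_Saline replicate 3 the first was 27. In the same comparison the summed level of the 6 Schwann cell markers was lower, at 7391 to 7527 CPM with N-acetyl-cysteine against 7988 to 8613 CPM with saline, and that of the 6 neutrophil markers was lower, at 206 to 271 CPM against 309.6 to 499 CPM. The sum of the 5 endothelial markers was higher, at 85.2 to 91.8 CPM against 80.1 to 83.6 CPM. The part of these cell types in the counts was not tested.

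Markers of 10 cell types were read beside these results. Of 65 markers 62 were in the count table, and none of the 62 was at 0 in any library. Between Sham_Saline and SNA_Saline 0 of the 62 passed in edgeR or limma, 3 passed in DESeq2 and 9 had an unadjusted p under 0.05, against 22.5% of all genes. The summed level overlapped for 9 of the 10 lists. The endothelial sum was lower after injury, at 80.1 to 83.6 CPM against 86.7 to 90.6 CPM. Of its 5 markers, 2 were fitted above 0 and 3 below, with a median of -0.05 beside -0.03 over all genes. The Schwann sum ran from 6319 to 10390 CPM within Sham_Saline, the erythroid sum from 255 to 848 CPM, and the muscle sum from 6.18 to 1218 CPM, the last in replicate 2. In SNA_Saline the erythroid sum ran from 283 to 717 CPM and the macrophage sum, whose cells are known for Hmox1, from 89.4 to 100.2 CPM beside 73.8 to 109 CPM in Sham_Saline. The part of these cells in the levels of the 10 genes was not tested.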

How the data were processed

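Whole numbers of reads per gene (counts) for 15730 genes and FPKM values for 45904 features were deposited by the authors. Per the submitters' processing notes, the tools were TopHat2 2.0.12, Bowtie2 2.2.3, SAMtools 0.1.19, HTSeq 0.6.0, FastQC 0.10.1, edgeR 3.8.6, limma 3.22.7 and R 3.1.1, with build mm10, named without role or order. Per the labels' protocols, libraries came from a stranded mRNA kit, 6 to a lane, read from one end. Whether counting used strand is not given in the sources used here. The lowest mean count in the deposited table was 10.1, so genes below that were not analysed here. For the 10 genes the deposited FPKM is the count times a factor per gene and a factor per sample, so both tables hold the same reads.

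Columns were matched to samples by name. The 10 genes and the lists were chosen with earlier results of these data known, as were the tests, so they give no independent support to patterns already seen in these libraries. The quasi-likelihood test of edgeR 4.0.16 (R 4.3.3) was run on the counts, with TMM scaling, filterByExpr, which removed no gene, and a single fit of the 18 samples. The model's common coefficient of biological variation came to 17.4%. Standard errors are the absolute log2 change divided by the square root of F, and 95% intervals use the test's degrees of freedom. Alternatives were DESeq2 1.42.0, at least 10 counts in every sample, no filter, the groups of a comparison alone, a block for the replicate number, a threshold of 0.10, limma 3.58.1 on log2(FPKM + 1) and log2(FPKM + 0.1), offsets for GC share and length (splines with 5 degrees of freedom on each gene's longest transcript in GENCODE M21, found for 15648 genes), these with the block, and leaving out each sample. As filterByExpr removed no gene, the fit with no filter is the reported fit, and the threshold of 0.10 uses its p-values. Methods were tested on simulated data. Log2 CPM used a prior count of 2. Gene positions are from GENCODE M21 (GRCm38) and promoter windows from RefSeq.

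All 10 genes are named. Of each pathway list the genes with an adjusted p under 0.05 are named, and likeness is given for a gene that differs between groups or, with none, for the one with the smallest p. Lists were regulators of Nrf2, Nrf2 targets, the glutathione cycle, superoxide and peroxide defence, heme and iron, peroxisome, axotomy genes, and markers of 10 cell types.

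The pairing comes from the labels, in which the replicate number is the sequencing lane; same-numbered samples are different animals. Samples of the same lane were compared by their deviations from the group means, whose correlation averaged 0.311 between Sham_Saline and LAM, 0.299 between Sham_H202 and Sham_Saline, 0.0886 between SNA_NAC and SNA_Saline, 0.0673 between DCA and LAM, -0.241 between SNA_Saline and Sham_Saline and -0.362 between SNA_NAC and Sham_Saline. All 3 numbers were above 0.1 only between Sham_Saline and LAM. An exact permutation test of 3 against 3 cannot go below 0.1, so models across all genes were used, and p-values measure the spread between these pools. Reads carry no molecular identifiers, so depth limits counting error only.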

Additional observations from a re-analysis of the deposited data

Results flagged for a closer look

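For 4 of the 111 pathway genes outside the 10, the response to sciatic injury and the response to dorsal column injury differed by a direct test of the difference in edgeR, a test that 1.61% of all genes passed. No explanation was tested for any of them.

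Ugdh, which makes UDP-glucuronate, changed by 1.00 on the log2 scale after sciatic injury and by -0.15 after dorsal column injury, a difference of 1.15 (edgeR adjusted p = 0.00229). It passed in 22 of 22 alternatives and was 0.72 with the GC and length offsets. Bach1, the repressor of Nrf2 target genes, changed by 0.83 and -0.27, a difference of 1.09 (edgeR adjusted p = 0.0270) that passed in 15 of 22. In LAM its level was 27.8, 26.9 and 28.2 CPM, and in DCA 23.9, 26.7 and 18.7 CPM, so the dorsal column groups lay below both sciatic injury groups.

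Ggct, of glutathione breakdown, changed by 0.74 and -0.12, a difference of 0.87 (edgeR adjusted p = 0.0296). It passed in 12 of 22 alternatives, and its adjusted p with the replicate block was 0.0547. Srxn1, the sulfiredoxin, changed by 0.94 and 0.11, a difference of 0.83 (edgeR adjusted p = 0.00207) that passed in 22 of 22. Groups of 3 were too small for a test of single outlying samples.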

How the results depend on the processing

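Counts of the 10 genes that passed were 0 in every comparison as reported, and the other ways of processing moved them as follows. An adjusted p under 0.10 gave 1 in SNA_Saline against Sham_Saline, SNA_NAC against Sham_Saline and the difference of injuries. The GC and length offsets gave 1 in those 3 and in the test of any group, the offsets with the replicate block gave 1 in these except the difference of injuries, and DESeq2 gave 1 in all 4. In the 3 comparisons this gene was Nfe2l2. With the GC and length offsets, 1169, 1204, 826 and 1652 of all genes passed in these 4 tests, in the order named. The filters, the groups of a comparison alone, limma and the replicate block alone gave 0 everywhere. Leaving out a sample gave 0 to 2 in SNA_Saline against Sham_Saline, 0 to 5 in SNA_NAC against Sham_Saline, 0 to 4 in Sham_Saline against LAM and 0 to 4 in the difference of injuries, each highest without Sham_Saline replicate 1. For all of these the cause was not tested. No share of all genes is given for DESeq2, the offsets with the block or the fits without a sample.

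Of 70 changes (10 genes, 7 comparisons), 32 altered their sign with the GC and length offsets, 4 with the count minimum, 4 with limma, 1 with the replicate block and 0 with DESeq2, as did 28 of 480 with a sample left out. No value of opposite sign passed, the smallest adjusted p among them being 0.157. In SNA_Saline against Sham_Saline, the offsets and then the offsets with the block gave Keap1 0.095 and 0.097, Gclm -0.017 and -0.018, Hmox1 0.014 and 0.0019, Sod1 -0.071 and -0.062, Sod2 -0.14 and -0.15, and Cat -0.086 and -0.086. Cat was -0.0091 with the count minimum and -0.025 with limma at both pseudocounts. Elsewhere the same pair of values was 0.11 and 0.11 for Sod2 in DCA against LAM, 0.14 and 0.14 for Keap1 in Sham_H202 against Sham_Saline, and -0.056 and -0.057 for Gclm in SNA_NAC against Sham_Saline. In Sham_Saline against LAM it was -0.19 and -0.19 for Keap1 and 0.0077 and 0.0086 for Gclm. In the difference of injuries it was 0.15 and 0.15 for Keap1 and -0.066 and -0.066 for Gclm. With a sample left out, changes in SNA_Saline against Sham_Saline ran from -0.24 to 0.070 for Gclc, from -0.23 to 0.066 for Hmox1, from -0.15 to 0.18 for Sod1 and from -0.045 to 0.068 for Cat, and that of Keap1 in Sham_H202 against Sham_Saline ran from -0.46 to 0.060.

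The replicate block called 0 of the 10 genes in every comparison. Of the changes of the other pathway genes it ended 3 calls, giving adjusted p-values of 0.0631 and 0.0691 for Ephx1 in SNA_Saline and SNA_NAC against Sham_Saline and 0.0547 for Ggct in the difference of injuries, and it changed no other call. The alternatives for the 6 other pathway genes and for the counts of list genes below 0 were chosen after seeing the data. Depth limits Nqo1 most, at 98 counts in the shallowest reading.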
